A study of Mus musculus with 4 samples.

Results

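Claudins are the membrane proteins that seal the gap between neighbouring epithelial or endothelial cells at the tight junction. The 10 claudin genes described here were taken by their symbols (Cldn1, Cldn2, Cldn3, Cldn4, Cldn5, Cldn7, Cldn8, Cldn12, Cldn15 and Cldn23) from tables of 141738 transcripts of 55203 genes, and together they had 27 transcripts. RNA came from intestine of wild-type adult male C57BL/6NTac mice aged 8 to 12 weeks, kept under specific-pathogen-free conditions. The labels mark 2 libraries as RVC, ribonucleoside vanadyl complex, a ribonuclease inhibitor used at 4 mM, and 2 as fresh frozen. All 4 carry the same protocol, which describes rinsing with RVC, so only the label tells how the frozen tissue differed, and no label says whether libraries of a group came from separate mice. The p-values therefore measure only the spread between these libraries, which may be technical.

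Claudins span the membrane and bind one another across the cell gap, and the set a cell makes decides which ions and water can pass between cells. Some, called pore-forming, line channels through the junction. Others, called barrier or sealing claudins, close it. In the intestine leakier junctions are known from the crypt and the small bowel and tighter ones from the distal colon. For the contrast between the classes, Cldn2 and Cldn15 were taken as pore-forming and Cldn1, Cldn3, Cldn4, Cldn5 and Cldn8 as barrier claudins. Cldn7, Cldn12 and Cldn23, whose roles are described differently in different tissues, were left outside both.

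Values are FPKM, sequenced fragments per unit of transcript length and of library size, which allows levels of different genes to be compared per length. A gene's FPKM is the sum over its transcripts. Where 4 values follow one another, they stand in library order: the first and second RVC library, then the first and second fresh-frozen library. Sequenced fragments per library are unknown, and the ratio of coverage to FPKM placed the other 3 libraries at 72.6% to 81.8% of the deepest, fresh frozen 2. Every claudin transcript had the status OK in all 4 libraries. The labels name ileum as the tissue and the protocol names distal colon. Of 5 colon genes the most abundant, Car1, averaged 1655 FPKM, and of 8 ileum genes the bile acid hormone Fgf15, the apolipoprotein Apoa4 and 3 Paneth cell defensins were listed at 0 in every library. The other 3 ileum genes were measured at low levels, above 2 FPKM in every library: Fabp6 averaged 3.37, Slc10a2 2.73 and Lyz1 2.37 FPKM. The 10 epithelial marker genes stood at 147 FPKM (Elf3) or more in each library, whereas the 6 squamous epithelial genes summed to 0.539 to 1.32 FPKM, with Krt6a listed at 0 in all 4. The labels number the batches 1 to 4, 1 per library, and what belongs to a batch cannot be told apart from what belongs to a group.

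The sequences below are windows from 250 bases before to 50 bases after a transcript start, read 5′ to 3′ on the gene's strand from the GRCm39 genome. They are shown for Cldn3, the most abundant barrier gene, and Cldn2, the pore-forming gene whose groups did not overlap, and for both main starts of Cldn7 and of Cldn15, between which the gene's FPKM was divided. Capitals mark CACCTG or its reverse complement CAGGTG, the E-box that Snail-type repressors are known to bind in claudin promoters.
Cldn3, chr5:135014818-135015117, plus strand: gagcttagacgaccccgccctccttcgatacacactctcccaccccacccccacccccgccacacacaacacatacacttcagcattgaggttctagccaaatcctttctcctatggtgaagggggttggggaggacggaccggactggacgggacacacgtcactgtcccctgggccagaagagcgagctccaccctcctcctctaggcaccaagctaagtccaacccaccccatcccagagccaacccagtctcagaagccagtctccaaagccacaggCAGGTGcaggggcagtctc
Cldn2, chrX:138701327-138701626, plus strand: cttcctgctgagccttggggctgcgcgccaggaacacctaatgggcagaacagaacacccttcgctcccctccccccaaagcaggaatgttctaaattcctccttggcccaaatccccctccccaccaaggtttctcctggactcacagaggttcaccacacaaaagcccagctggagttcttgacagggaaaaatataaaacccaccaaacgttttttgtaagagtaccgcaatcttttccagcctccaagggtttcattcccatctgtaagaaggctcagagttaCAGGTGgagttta
Cldn7, downstream start, chr11:69855972-69856271, plus strand: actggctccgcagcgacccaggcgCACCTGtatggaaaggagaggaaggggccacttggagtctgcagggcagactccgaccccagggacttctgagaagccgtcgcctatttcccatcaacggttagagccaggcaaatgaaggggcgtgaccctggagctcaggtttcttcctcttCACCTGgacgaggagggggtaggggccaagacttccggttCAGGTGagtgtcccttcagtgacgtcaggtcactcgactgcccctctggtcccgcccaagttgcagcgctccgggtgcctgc
Cldn7, upstream start, chr11:69855355-69855654, plus strand: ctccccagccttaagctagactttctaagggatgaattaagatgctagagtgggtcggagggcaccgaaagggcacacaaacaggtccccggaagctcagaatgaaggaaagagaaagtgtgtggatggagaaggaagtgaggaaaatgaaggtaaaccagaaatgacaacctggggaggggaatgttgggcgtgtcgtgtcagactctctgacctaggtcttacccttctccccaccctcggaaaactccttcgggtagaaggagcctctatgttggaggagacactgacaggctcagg
Cldn15, downstream start, chr5:136996473-136996772, plus strand: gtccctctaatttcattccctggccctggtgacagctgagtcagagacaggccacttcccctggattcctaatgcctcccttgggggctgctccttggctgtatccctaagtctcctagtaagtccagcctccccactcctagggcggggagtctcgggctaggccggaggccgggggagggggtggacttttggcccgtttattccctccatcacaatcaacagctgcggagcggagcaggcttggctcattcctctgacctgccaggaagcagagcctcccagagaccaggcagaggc
Cldn15, upstream start, chr5:136995220-136995519, plus strand: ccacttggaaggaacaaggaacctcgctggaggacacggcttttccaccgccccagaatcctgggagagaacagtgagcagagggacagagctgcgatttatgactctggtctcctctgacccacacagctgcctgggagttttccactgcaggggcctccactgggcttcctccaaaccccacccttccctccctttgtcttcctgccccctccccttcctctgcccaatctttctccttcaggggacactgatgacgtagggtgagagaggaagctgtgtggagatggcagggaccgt

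The E-box letters stood in the windows of Cldn3 and Cldn2 and 3 times in that of the downstream Cldn7 start, and in neither Cldn15 window nor the upstream Cldn7 window. Counting 1 window per claudin, at the start of its most abundant transcript, 6 of 10 held CACCTG on either strand (Cldn2, Cldn3, Cldn4, Cldn7, Cldn8 and Cldn23). Among windows of the same length at 13735 genes averaging at least 1 FPKM, 18.38% held it. The TATA box core TATAAA was found in 1 of the 10, that of Cldn2, with its first base 55 bases before the start, against 9.756% of the 13735 windows. The GC box GGGCGG was found in 8 of 10, against 54.91%. AACCNGTT, the core bound by Grainyhead-like factors, was found in 1 of 10 (Cldn5), against 1.915%, and TTTATNG, a core of the CDX type, in 0 of 10, against 8.679%. Both strands were searched for every motif, and no match overlapped one of another motif in the claudin windows. These matches are descriptions of the letters, not of binding.

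Expression of the family was concentrated in Cldn7 and Cldn3. Together they held 86.4% ± 1.79 (SD, n = 4 libraries) of the FPKM of the 10 genes. Cldn7, a claudin abundant along the gut that also lies on the lateral membrane bound to Epcam, averaged 335 ± 29.3 FPKM (SD, n = 4). Its values in library order were 364, 352, 328 and 298, highest in the RVC pair. Cldn3, a sealing claudin that is also a receptor of a clostridial enterotoxin, averaged 204 ± 39.9 FPKM (SD, n = 4). Cldn7 exceeded Cldn3 in 4 of 4 libraries and their ranges did not overlap. This order holds for the sum over Cldn7 transcripts. The most abundant Cldn7 transcript alone measured 244, 218, 188 and 185 FPKM, against 248, 228, 172 and 169 for Cldn3. It was thus lower than Cldn3 in both RVC libraries and higher in both fresh-frozen libraries. The next gene in the order, Cldn4, stood 12.3-fold below Cldn3.

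A middle group of 6 genes lay close together: Cldn4 at 16.6 ± 2.42, Cldn12 at 16.5 ± 0.927, Cldn23 at 15.4 ± 0.935, Cldn8 at 12.97 ± 4.91, Cldn2 at 10.5 ± 2.38 and Cldn15 at 9.18 ± 2.39 FPKM (SD, n = 4 each). None of the 5 neighbouring pairs in this group differed beyond the spread over libraries, since the ranges overlapped in each pair. Cldn12 exceeded Cldn4 in 3 of 4 libraries although its mean was lower, and Cldn2 exceeded Cldn15 in 2 of 4. Below a gap came Cldn5, the claudin of blood vessel endothelium, at 2.12 ± 0.893 FPKM, and Cldn1, known for sealing the epidermis, at 0.284 ± 0.0793 FPKM (SD, n = 4 each). Neither range overlapped that of its neighbour above. Among the 25 other claudin genes in the tables, only Cldn14 averaged at least 1 FPKM, at 1.48 ± 0.203 (SD, n = 4). The other 24 stayed at or below 0.611 FPKM in every library, and 11 were listed at 0 in all 4. They include Cldn18, the stomach and lung claudin, and Cldn16, the magnesium-linked claudin of the kidney.

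**Figure D1:**
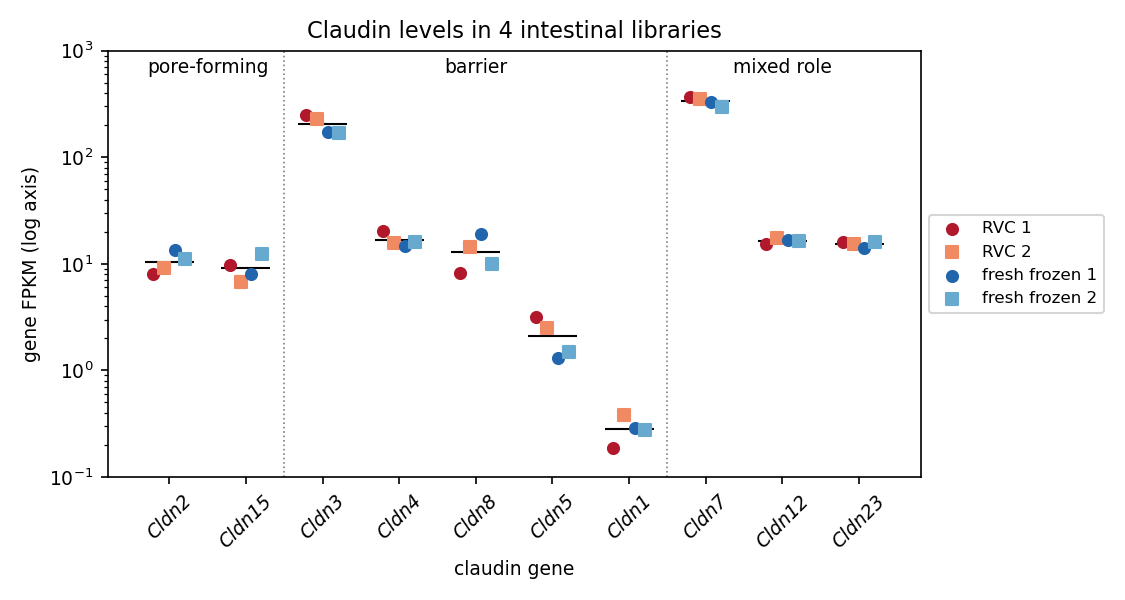
FPKM of 10 claudin genes (log axis) in 4 libraries, grouped as pore-forming, barrier or mixed role; points are libraries and bars are means over 4. Cldn7 and Cldn3 lie at 335 and 204 FPKM, 6 genes lie between 9.18 and 16.6, and Cldn1 lies at 0.284.

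The pore-forming claudins were scarce relative to the barrier claudins. Cldn2 and Cldn15 summed to 17.7, 15.95, 21.5 and 23.5 FPKM in library order. The 5 barrier genes summed to 279, 261, 207 and 197. The pore class was thus lowest and the barrier class highest in the RVC libraries, without overlap in either class. The barrier sum exceeded the pore sum 15.7-fold and 16.4-fold in the RVC libraries and 9.63-fold and 8.37-fold in the fresh-frozen libraries. On the log2 scale the ratio of pore to barrier FPKM averaged -3.59 ± 0.49 (SD, n = 4). The RVC libraries averaged -4.00 ± 0.040 and the fresh-frozen libraries -3.17 ± 0.14 (SD, n = 2 per group). The difference of -0.84 was larger than the differences within the groups, 0.056 and 0.20. No p-value is given for a score over chosen genes, and an exact permutation test of 2 libraries against 2 cannot go below 0.33.

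This ratio rested mainly on Cldn3. Without Cldn3 its mean was -0.71 and the difference between groups -0.46, when the within-group difference of the fresh-frozen libraries was 0.48. With each gene weighted equally, as the difference of mean log2(FPKM + 1), the classes stood at -0.087, close to equal. The groups then differed by -0.57. Here the barrier mean gives Cldn5 (2.12 FPKM) and Cldn1 (0.284 FPKM), the lowest of the 10 genes, the same weight as Cldn3. Counting Cldn12 as pore-forming and Cldn7 and Cldn23 as barrier gave a mean of -4.02 and a difference of -0.51. In each of these versions the mean ratio of the RVC libraries was the lower one. Only in the version without Cldn3 was the gap between groups smaller than a gap within one.

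**Figure D2:**
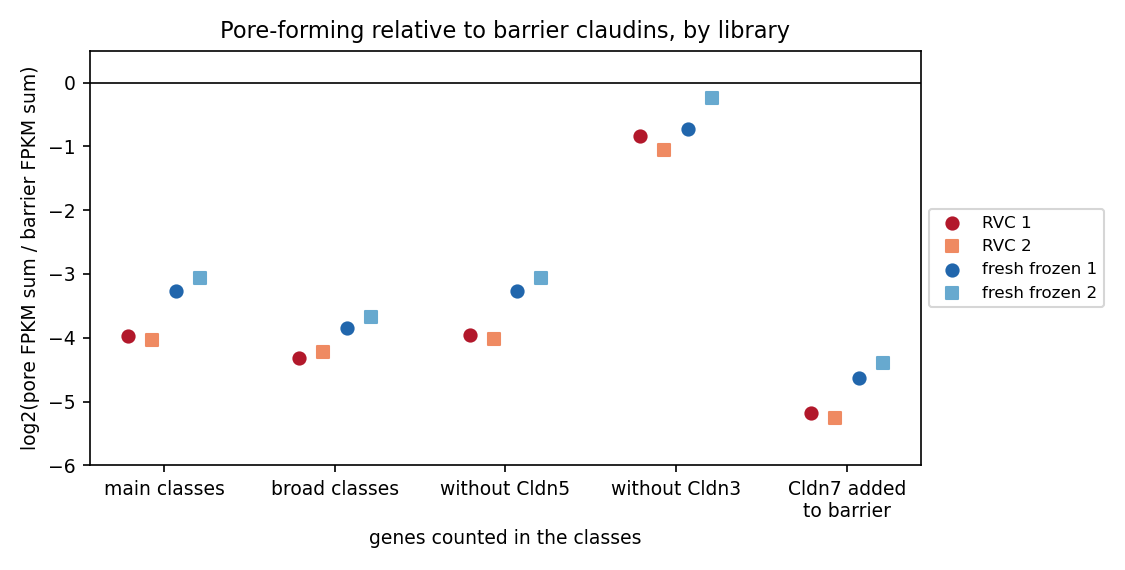
Log2 ratio of summed pore-forming to summed barrier claudin FPKM in each of 4 libraries (points) under 5 choices of genes. With the main classes the RVC libraries lie at -3.98 and -4.03 and the fresh-frozen libraries at -3.27 and -3.07; without Cldn3 all 4 lie between -1.05 and -0.24.

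Each gene was then compared between RVC and fresh frozen with limma on log2(scaled FPKM + 1), in a fit over 13771 genes with Benjamini-Hochberg adjustment. The added pseudocount of 1 shrinks the fold change of genes with low FPKM. Cldn1 averaged below 1 FPKM and was not tested. With median-ratio scaling none of the 9 tested claudins passed an adjusted p of 0.05, a threshold passed by 5 genes (2 higher and 3 lower in RVC) or 0.0363% of all genes tested. An unadjusted p under 0.05 was reached by 3 of 9 claudins, Cldn3, Cldn5 and Cldn2, against 18.4% of all genes. Cldn3 and Cldn5 were the higher ones in RVC and Cldn2 the lower one, where 9.38% and 8.99% of all genes lay in those directions. The groups did not overlap for 4 of 9, against 53.2% of all genes, so the share of claudins without overlap was no higher than the background. The median log2 fold change of the 9 was 0.060, and that of all genes was 0.0066.

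Among barrier genes, Cldn3 (ENSMUSG00000070473, chromosome 5, 135015068 to 135016326, plus strand, GRCm39) stood highest in both RVC libraries. In library order it measured 248, 228, 172 and 169 FPKM. The groups did not overlap, and the confidence bounds of its only transcript, as deposited, ran from 217 upward in RVC and up to 180.4 in fresh frozen. Its log2 fold change of 0.48 (SE 0.11) had a limma adjusted p of 0.134. It ranged from 0.42 to 0.55 over 16 alternatives that leave out the endothelial scaling described for Cldn5, with adjusted p-values of 0.111 to 0.505. The Cldn3 locus lies within the long noncoding gene Wbscr25 on the opposite strand, which was listed at 0.236 FPKM or less in each library.

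Cldn4 (chromosome 5, 134973973 to 134975788, minus strand), a sealing claudin that restricts sodium passage, lies beside Cldn3 on the chromosome. Its 4 values were 20.2, 15.6, 14.7 and 15.9 FPKM. Only RVC 1 stood out, and the groups overlapped (log2 fold change 0.21, SE 0.15, limma adjusted p 0.465). The log2 fold change was 0.027 without RVC 1, 0.38 without RVC 2 and 0.14 without fresh frozen 1.

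Cldn8 (chromosome 16, 88357716 to 88360071, minus strand), a sealing claudin of distal nephron and distal colon, had the widest range of log2(scaled FPKM + 1) among the 9 claudins tested. The libraries gave 8.16, 14.5, 19.2 and 10.05 FPKM. Each group thus held 1 high and 1 low library, and the ranges overlapped. The deposited bounds of the 4 values, 7.42 to 8.90, 13.5 to 15.5, 17.96 to 20.4 and 9.31 to 10.8, were separate from one another. These bounds cover the estimation within a library only. Over the 4 libraries this log2 value ranged by 1.12, more than for 97.8% of the 13771 genes. As a ratio of the highest to the lowest FPKM, which the pseudocount does not shrink, Cldn8 came to 2.35 and Cldn5 to 2.47. Among 2612 genes within 0.5 of its mean log2 level, 98.4% had a smaller range. The log2 fold change between groups was -0.32 (SE 0.32, limma adjusted p 0.598), and it became 0.056 without RVC 1 and 0.099 without fresh frozen 1.

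Cldn5 (ENSMUSG00000041378, chromosome 16, 18595597 to 18597012, plus strand) had the largest log2 fold change of the family. Its FPKM was 3.20, 2.51, 1.29 and 1.49 in library order. The RVC values lay above the fresh-frozen values without overlap, although at this level the deposited bounds were wide, 1.96 to 3.07 in RVC 2 and 1.10 to 1.87 in fresh frozen 2. At a log2 fold change of 0.69 (SE 0.16) the limma adjusted p was 0.134. Endothelial genes were also higher in the RVC libraries. On scaled FPKM 9 of 9 tested markers other than Cldn5 lay above fresh frozen without overlap, against 26.5% of all genes. Robo4, below the filter, also lay above without overlap in FPKM. With Robo4, the FPKM of the 10 markers summed to 30.1 and 29.95, against 16.5 and 19.3. With libraries scaled to those 10 genes, an alternative chosen after seeing the data, the log2 fold change of Cldn5 was 0.19 and its limma adjusted p was 0.315, while the median over all genes moved to -0.62. On that scale 10384 of 13878 genes passed, 10336 of them lower in RVC, and among them were 6 claudins at log2 fold changes of -1.15 for Cldn2, -1.01 for Cldn8, -0.93 for Cldn15, -0.71 for Cldn12, -0.65 for Cldn23 and -0.50 for Cldn4. Cldn3 stood at -0.26 and Cldn7 at -0.55 and did not pass, so the direction of Cldn3, Cldn7, Cldn4 and Cldn23 turned. Relative to the shifted median, Cldn3, Cldn5, Cldn7 and Cldn4 lay above it and Cldn2, Cldn8, Cldn15, Cldn12 and Cldn23 below it, Cldn23 only slightly. In bulk tissue more cells of a type and more RNA per cell cannot be told apart.

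Cldn1 (chromosome 16, 26175392 to 26190591, minus strand) was listed at 0.188, 0.382, 0.288 and 0.277 FPKM. The RVC values enclosed the fresh-frozen values.

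Of the pore-forming genes, Cldn2 (ENSMUSG00000047230, chromosome X, 138701577 to 138712135, plus strand) forms a channel for cations and water and is known from crypt cells. Library by library it stood at 8.09, 9.18, 13.5 and 11.2 FPKM. Both RVC values lay below both fresh-frozen values, and the deposited bounds reached 9.97 at most in RVC and 10.4 at least in fresh frozen. Its log2 fold change of -0.46 (SE 0.13) had a limma adjusted p of 0.163 and ran from -0.57 to -0.35 over the same 16 alternatives. The 7 crypt base genes summed to 30.04, 30.9, 32.1 and 37.9 FPKM, and 4 of the 5 tested were lower in RVC (median log2 fold change -0.15). Over all genes 6748 of 13771 were lower. On scaled FPKM 2 of the 5, Lrig1 and Sox9, lay below fresh frozen without overlap, against 26.6% of all genes. Axin2 was near level at 0.022, and Lgr5, below the filter, overlapped between groups. Ascl2, also below the filter, was lower in RVC without overlap, at 0.635, 0.415, 0.898 and 0.697 FPKM. The 6 surface colonocyte genes summed to 6715, 5698, 5228 and 4584 FPKM, all 6 were higher in RVC and their median was 0.24. Over all genes 7023 of 13771 were higher. On scaled FPKM 3 of the 6 lay above fresh frozen without overlap, against 26.5% of all genes. None of these genes passed the adjusted threshold, and none of them was listed at 0. The part of either cell population in the values of Cldn2 or Cldn3 was not tested.

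Cldn15 (ENSMUSG00000001739, chromosome 5, 136995470 to 137004712, plus strand), a sodium-permeable claudin best known from the small intestine, measured 9.66, 6.77, 8.01 and 12.3 FPKM. The highest value was in fresh frozen 2 and the groups overlapped. The log2 fold change was -0.26 (SE 0.23, limma adjusted p 0.550), and without fresh frozen 2 it was 0.033. Of 4 mesothelial genes, which belong to the outer lining of the gut, Msln averaged 8.26 FPKM and Upk3b 4.75, and both overlapped between groups. The other 2, Lrrn4 at 2.33 and Wt1 at 1.19 FPKM, were lower in RVC without overlap, against 26.6% of all genes.

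Among the genes of mixed role, Cldn7 (ENSMUSG00000018569, chromosome 11, 69855605 to 69858711, plus strand) stood above fresh frozen in both RVC libraries, with a log2 fold change of 0.20 (SE 0.12) and a limma adjusted p of 0.385. Its end overlaps Elp5 on the opposite strand over 543 bases, and Elp5 measured 9.86 to 12.5 FPKM. Cldn12 (chromosome 5, 5539537 to 5564958, minus strand), linked to calcium permeability and without the usual C-terminal PDZ-binding motif, measured 15.4, 17.6, 16.8 and 16.3 FPKM. Cldn23 (chromosome 8, 36291866 to 36293713, minus strand), known from differentiated colonocytes, measured 16.1, 15.3, 14.1 and 16.1 FPKM. Both genes had overlapping groups, with log2 fold changes of -0.0039 (SE 0.12) and 0.060 (SE 0.12). Their ranges on the log2 scale, 0.18 and 0.20, were the smallest of the 9 tested claudins, and the median over all genes was 0.37.

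**Figure D3:**
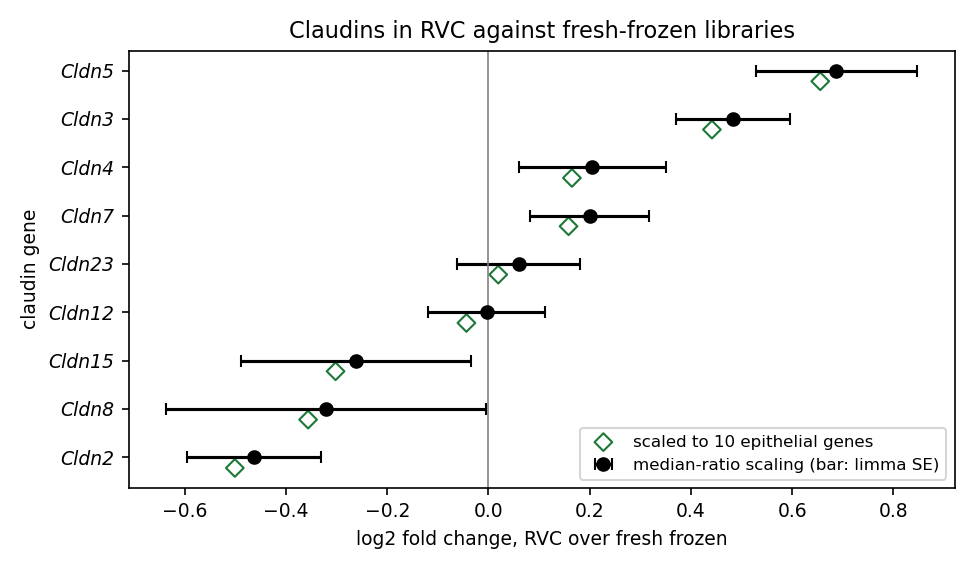
Log2 fold change of 9 claudins, RVC over fresh frozen: filled points with limma SE after median-ratio scaling, open diamonds after scaling to 10 epithelial genes. The order runs from Cldn2 at -0.46 to Cldn5 at 0.69, and none passed an adjusted p of 0.05 under either scaling.

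**Figure D4:**
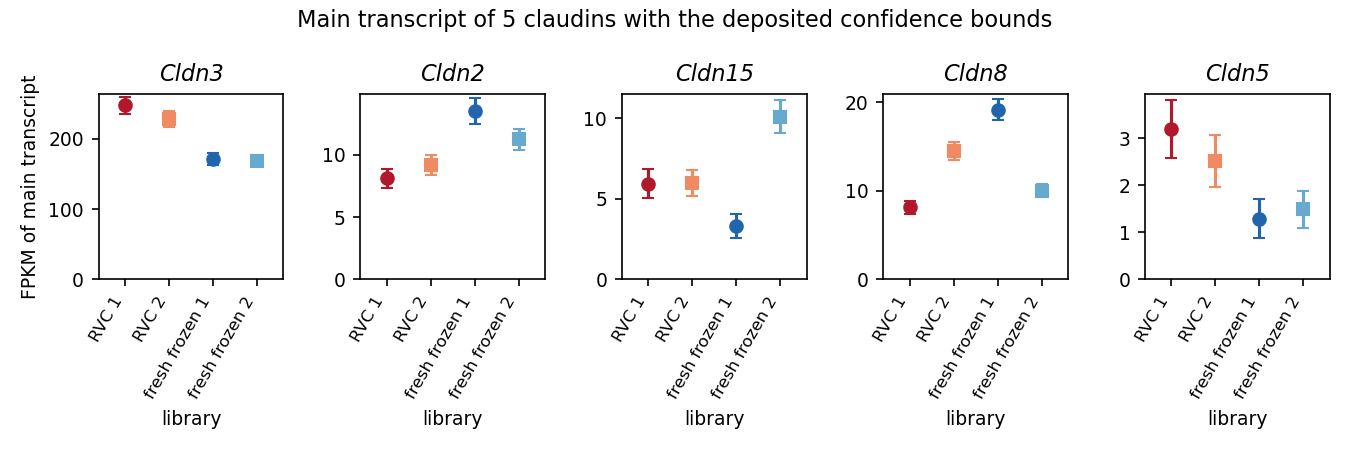
FPKM of the most abundant transcript of 5 claudins in each library, with the confidence bounds deposited by the authors; axes start at 0 and differ between panels. Cldn3 and Cldn5 are higher and Cldn2 lower in RVC, whereas Cldn8 splits both groups, from 8.16 to 19.2.

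When the libraries were scaled to 10 genes of the epithelium instead, to compare claudins with the epithelial RNA around them, Cldn3 stood at 0.44, Cldn7 at 0.16, Cldn4 at 0.16 and Cldn2 at -0.50 on the log2 scale. The limma adjusted p-values, in the same gene order, were 0.249, 0.679, 0.740 and 0.268. Smooth muscle genes summed to 1113, 1658, 685 and 738 FPKM. They were higher in RVC for 8 of 8 markers, their median log2 fold change being 0.77. Plasma cell genes were higher for 3 of 3 tested, with a median of 0.62. Among all genes tested, 7023 of 13771 were higher. Of the plasma cell genes below the filter, Tnfrsf17 was higher in RVC without overlap. Derl3 overlapped between groups, averaging 0.364 FPKM in RVC and 0.417 in fresh frozen. The epithelial list had a median of 0.061, the neuron and glia list 0.23 over 4 tested genes, the mesothelial list -0.073, the colon list 0.045 and the ileum list 0.028. No gene of these lists passed the adjusted threshold with limma, and the part of these cells in the claudin values was not tested.

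The transcripts behind the gene values were examined next, since FPKM of a gene can move between starts or splice forms. Cldn3, Cldn4, Cldn5 and Cldn8 had a single transcript each, and Cldn2 had all its FPKM in 1 of 3. Cldn7 was divided in much the same way in every library. Its 1335-nt transcript ENSMUST00000018713, from the downstream start, held 62.05% ± 3.94, and the 913-nt transcript ENSMUST00000108597, from the upstream start, held 22.97% ± 1.11 (SD, n = 4 each). A 373-nt transcript, ENSMUST00000151515, held 14.0% ± 4.23, with its highest share, 19.8%, in fresh frozen 1. The longest form measured 244, 218, 188 and 185 FPKM, so its groups did not overlap, as for the gene. Taken alone it gave a log2 fold change of 0.33 with a limma adjusted p of 0.215, against 0.20 for the sum.

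For Cldn15 the division differed between libraries of the same group. The downstream start, ENSMUST00000001790, held 61.3%, 88.6%, 41.3% and 82.2% of the gene's FPKM. The upstream start, ENSMUST00000111093, was listed at 3.67, 0.711, 4.54 and 1.69 FPKM. The upstream form was thus highest in RVC 1 and fresh frozen 1, and its bounds there, 2.93 to 4.41 and 3.73 to 5.36, lay above those of RVC 2 and fresh frozen 2, at most 1.07 and 2.17. Both forms are annotated as protein-coding, and Cufflinks divides fragments that fit several forms by a likelihood model.

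In Cldn12 a long and a short form stood in opposite order between groups. Its main transcript, ENSMUST00000060947 of 3597 nt, measured 7.88, 8.10, 10.3 and 10.9 FPKM, lower in RVC without overlap. ENSMUST00000198303, of 349 nt and without a defined coding sequence, ran the other way, at 2.39, 5.08, 0.576 and 1.05 FPKM. Taking the most abundant transcript alone gave Cldn12 a log2 fold change of -0.35 with a limma adjusted p of 0.208, against -0.0039 for the sum. The bounds of the short form were wide, 0.698 to 4.08 in RVC 1 and 0 to 1.44 in fresh frozen 1. In Cldn23 a 232-nt transcript held 25.9% of the gene's FPKM in fresh frozen 1 and at most 9.02% in the other libraries. Without it, Cldn23 was 10.5 FPKM in fresh frozen 1 and 14.7 to 15.5 in the others.

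**Figure D5:**
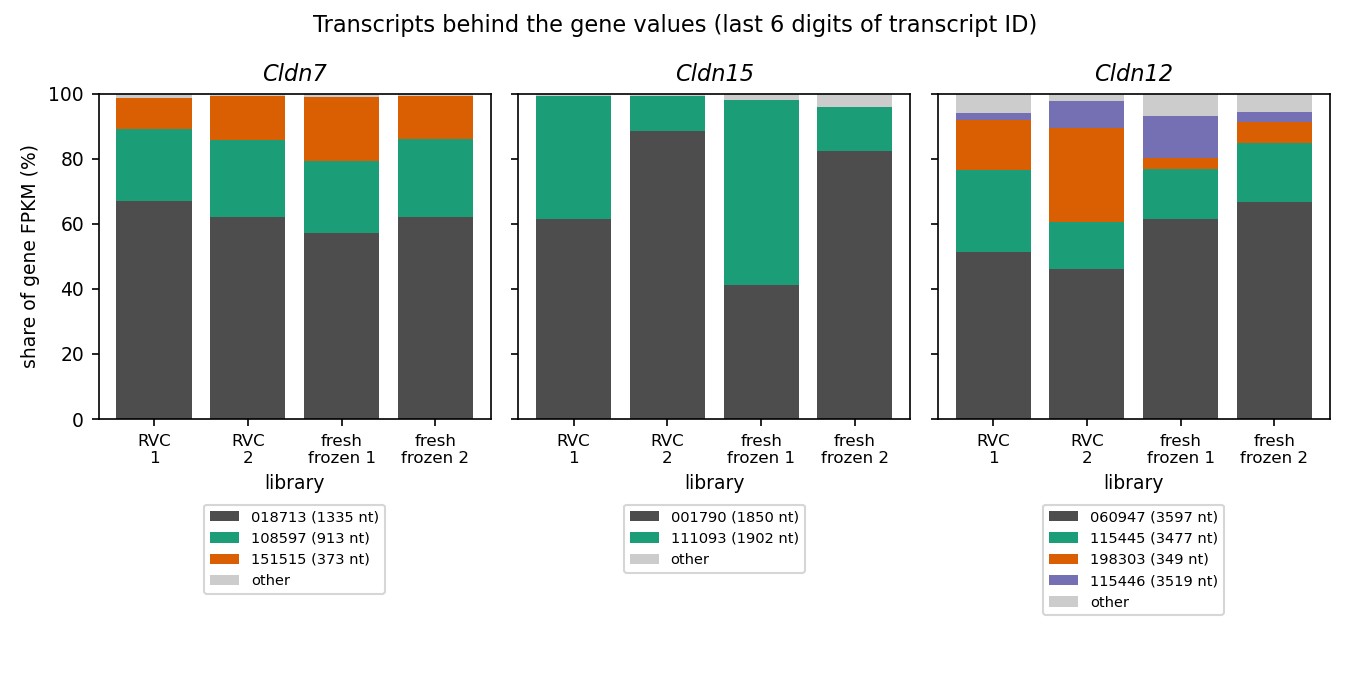
Share of a gene's FPKM (%) held by each transcript of Cldn7, Cldn15 and Cldn12 in 4 libraries; colours are transcripts, light grey is the rest. Cldn7 keeps about the same division in all 4, and the main form of Cldn15 runs from 41.3% to 88.6%.

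Claudins are tied to the cell by other tight junction proteins, and 43 genes of 3 lists were read beside them. Bves, Ildr2 and Magi2 were among those below the filter. Of 39 tested, 0 passed an adjusted p of 0.05 with limma. Before adjustment 10 of the 39 had a p under 0.05, all of them higher in RVC, where the background in that direction was 9.38%. The RVC values lay above the fresh-frozen values without overlap for 22 of 39 genes, against 26.5% of all genes, and below them for 1, Prkci, an atypical protein kinase C of the polarity complex, against 26.6%. The median log2 fold change of the 39 was 0.16.

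Of the other transmembrane proteins of the junction, 8 of 12 tested genes had RVC above fresh frozen without overlap, against 26.5% of all genes, and the median log2 fold change was 0.16. The most abundant were Cxadr, an adhesion receptor also used by viruses, at a mean of 78.7 scaled FPKM, F11r (junctional adhesion molecule A) at 78.4 and Ocln (occludin) at 54.96. Cxadr stood at a log2 fold change of 0.28 (limma adjusted p 0.229) and F11r at 0.15 (0.470). Marveld3, a relative of occludin, measured 47.2 in RVC and 35.97 in fresh frozen on the scaled FPKM scale, a log2 fold change of 0.39 (limma adjusted p 0.178).

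Of the scaffold and polarity proteins under the membrane, 21 were tested and 10 lay above fresh frozen without overlap, against 26.5% of all genes, with a median of 0.13. Tjp3 and Tjp1, which bind claudin tails, averaged 42.03 and 36.1 scaled FPKM, with log2 fold changes of 0.30 and 0.10. Ybx3, a transcription factor held at the junction, averaged 33.4, with a log2 fold change of -0.11 and overlapping groups. The smallest p-values belonged to Pard6a and Pard6g, polarity adaptors at 2.03 and 1.71 scaled FPKM, the first at a log2 fold change of 0.54 (limma adjusted p 0.159) and the second at 0.45 (0.195).

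Regulators of claudin stability stood at higher levels. Epcam, which binds Cldn7 and protects it from breakdown, averaged 742 scaled FPKM, with a log2 fold change of 0.090 and overlapping groups. Spint2 and Spint1, inhibitors of the membrane protease that cleaves Epcam, averaged 466 and 111 scaled FPKM. Their log2 fold changes were 0.42 and 0.40, each with a limma adjusted p of 0.163 and no overlap between groups. St14, the protease itself, averaged 67.5 scaled FPKM and was also higher in RVC without overlap, at 0.37 (limma adjusted p 0.203). Of the 6 regulators tested, 4 had RVC above fresh frozen without overlap, against 26.5% of all genes. Mylk, the myosin light chain kinase that opens junctions and is also made by smooth muscle, stood at 0.40 (limma adjusted p 0.161).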

How the data were processed

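RNA was measured by RNA-seq in 4 libraries of mouse intestine, 2 RVC and 2 fresh frozen; per the labels' protocols ribosomal RNA was depleted and reads were 150-bp pairs. Per the submitters' processing notes, reads were processed with TopHat2 2.1.1 and Cufflinks 2.2.1 on GRCm39; the annotation release and any strand setting are not given in the sources used here. The deposited values are FPKM per transcript with confidence bounds, and a coverage signal, per the file headers; count models were not applied to them. Libraries were grouped by title.

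Gene FPKM was summed over transcripts and scaled by median ratio. Values were compared on log2(scaled FPKM + 1), with a pseudocount of 1, by limma 3.58.1 in R 4.3.3 (mean-variance trend, two-sided, no covariate, Benjamini-Hochberg adjustment, threshold 0.05). Tested genes had a mean of at least 1 scaled FPKM, a longest transcript of at least 300 nt and status OK throughout. On simulated data of 13771 genes the test found 79.0% of genes set to 2-fold and 99.4% of those set to 4-fold. Of the calls, 4.48% were false. These shares apply to the simulated data only, and the share found in the measured libraries was not tested. Annotation and promoter sequences came from GENCODE on GRCm39, and tables were joined with pandas 2.3.3. Members, classes and gene lists were chosen with earlier results of these data known. Named genes were all members, other claudins averaging at least 1 FPKM, the 3 most abundant and the 2 of smallest p of each tight junction list, the most abundant gene of cell type lists and genes at 0, and transcripts holding at least 10% of a gene; further genes were named after their values were seen. Pals1 was matched as Mpp5. Alternatives were another pseudocount, scaling, filter, trend, replicate block, transcript choice or class, and each library left out.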

Additional observations from a re-analysis of the deposited data

How the results depend on the processing

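Genes called over the whole table numbered 5, and 2 with the most abundant transcript of each gene. There were 0 without a filter on low values, without transcripts under 300 nt or without a trend, and 2 at a mean of at least 5 FPKM, while the count was 30 without RVC 1, 8 without RVC 2, 22 without fresh frozen 1 and 27 without fresh frozen 2. A replicate block on sample number gave 112 calls, 0 of them claudins. Across genes, the difference between samples 1 and 2 in RVC was only weakly related to that in fresh frozen (Pearson r = -0.13). Pairing the numbers crosswise, chosen after seeing the data, gave 12 calls. Nothing in the labels says that numbers pair libraries. Scaling to epithelial genes gave 71 calls, 42 higher and 29 lower in RVC, against 2 and 3 in the main comparison, and upper-quartile scaling gave 4 and 3. No claudin passed under these settings. Scaling to endothelial genes, also chosen after seeing the data, shifted the median of all genes to -0.62 and gave 10384 calls, 48 higher and 10336 lower, 6 of them claudins. Under it the direction turned for Cldn3 (-0.26), Cldn7 (-0.55), Cldn4 (-0.50) and Cldn23 (-0.65). The mean pore to barrier ratio was -3.59 and moved to -0.087 with genes weighted equally, the scarce Cldn1 and Cldn5 included. Among choices added later it was -0.71 without Cldn3, -4.87 with Cldn7 as barrier and -4.29 for Cldn2 over Cldn3. The group difference of -0.84 moved to -0.51 with broad classes and -0.57 with equal weights, and to -0.46, -0.71 and -0.99 with those later choices. Elsewhere directions turned for Cldn15 (0.028 with the most abundant transcript, 0.033 without fresh frozen 2) and Cldn8 (0.056 without RVC 1, 0.099 without fresh frozen 1). They also turned for Cldn12 (0.0033 with upper-quartile scaling, 0.043 without short transcripts, 0.085 without RVC 1) and Cldn23 (-0.042 without fresh frozen 1). With single libraries left out, the log2 fold change ran from -0.56 to 0.033 for Cldn15, -0.74 to 0.099 for Cldn8, -0.092 to 0.085 for Cldn12 and -0.042 to 0.16 for Cldn23. The cause of these moves was not tested. Cldn5 was not tested at a mean of at least 5 FPKM. Where a library was left out, its lone partner was assumed to vary like the other group. Depth limits Cldn1 and Cldn5 most, since their deposited bounds are wide for their level.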

Other observations

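The genes whose profile over the 4 libraries lay nearest to that of Cldn8 were looked up after its values were seen, as the smallest Euclidean distance of centred log2(scaled FPKM + 1) among 11365 protein-coding genes. The first 5 were 2210418O10Rik, Ankrd22, Serpinb5, Cep63 and Pdgfd, at distances of 0.193 to 0.272. Serpinb5, a serpin of epithelial cells, measured 14.8, 21.9, 27.6 and 18.5 scaled FPKM, in the library order used above. Like Cldn8 it was highest in fresh frozen 1 and RVC 2. With 4 libraries many genes share an order, so this is a description only. Hoxd13, a gene of the hindmost body axis from the colon list, was also highest in these libraries, at 9.59, 26.0, 39.5 and 5.68 FPKM.

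Cldn14, known from the kidney and the inner ear, was the one further claudin above an average of 1 FPKM. It measured 1.24, 1.50, 1.73 and 1.45 FPKM, and its groups overlapped.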
